A study of Rattus norvegicus with 12 samples.

Results

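Neuropeptide and granin genes were followed in rat mixed glial cultures given cytokine mixtures. The set held 10 genes, namely Vgf, Scg2, Chga, Gal, Vip, Sst, Penk, Npy, Tac1 and Cck. It was taken as all probe sets whose annotated symbol is one of these, and 9 of the 10 genes had 11 probe sets among the 8740 that were analysed. Chga had no probe set under its symbol. The genes were selected with the ratios of treated to control arrays in view, so those ratios are given as a description and without a test. The name given to the set, peptides made by glia, could not be checked on the arrays for the cell of origin, since each measured RNA of a whole culture. From antibody staining, the authors reported mainly oligodendrocytes and astrocytes, with fewer microglia and glial precursors. They reported no neurons or endothelial cells.

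Cultures were prepared from newborn rat brain by shake-off, with the microglia removed only in part, and were kept for 6 to 8 days in medium with 2 percent fetal bovine serum. Th1 cultures received interferon-g and TNF-a together with IL-2 and G-CSF. Monocyte/macrophage (M/M) cultures received IL1a, IL1b, IL-12p40 and TNF-a, to which the methods add IL-6. Th2 cultures received porcine TGF-b1 with G-CSF, IL-10 and IL-5, to which the methods add IL-4. Each cytokine was used at 10 ng/ml for 6 h, and control cultures received medium alone. Each of 3 experiments supplied 1 array of every group, so that 12 Affymetrix RG-U34A arrays were used and each group had 3. This number limits the precision. The limma p values given below do not measure the spread between experiments, which was taken out as a block. They rest on how far differences between groups varied among the 3 separately cultured experiments, with variance information shared across probe sets.

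Neuropeptides are made as longer precursors, which enter the regulated secretory pathway, are cut by prohormone convertases and trimmed by carboxypeptidases, and act on G protein-coupled receptors after release. Granins, such as Vgf, Scg2 (secretogranin II) and chromogranin A, are acidic proteins packed into the same dense-core granules, and several of them are themselves cut into active peptides. In the brain both families are best known from neurons, although cultured astrocytes also express and secrete some of them. Several of these genes are textbook targets of cyclic AMP signalling through the cAMP response element (CRE), the palindrome TGACGTCA, which is bound by the CREB family. Its shorter part TGACG can also be bound.

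RefSeq promoters of the GRCr8 assembly, from 250 bases before to 50 bases after the annotated start, matched 7 of the 10 genes (Vgf, Scg2, Sst, Vip, Gal, Tac1 and Npy). The full element was found in 3 of these 7, in Vgf, Scg2 and Sst, whereas 1.83 percent of 33469 promoters held it. The short site TGACG, searched on both strands and contained in the full element, was found in 6 of 7 (Npy was the exception) and in 21.2 percent of all promoters. The AP-1 letters TGANTCA were found in 0 of 7 and in 7.33 percent. The NF-kappaB-like letters GGGNNNNNCC, or GGNNNNNCCC for the other strand, were found in 4 of 7 (Vgf, Sst, Gal and Npy) and in 47.3 percent. Gal held only the form GGNNNNNCCC. Among the 21851 promoters of coding genes the shares were 2.1 percent for the full element and 23.5 percent for the short site. They were 6.53 percent for the AP-1 letters and 52.8 percent for the NF-kappaB-like letters. The matches describe letters in a window. Binding was not measured. The stretches around the element are shown for the 3 genes that hold the full CRE and for Vip, which holds the short site. These 4 genes were picked from the 5 with the highest ratios. Gal, also among the 5, and Tac1 hold the short site too, at -63 to -59 and -206 to -202, and are not shown. A link between element and ratio was not tested. Capitals mark the element, and each stretch runs 5′ to 3′ on the strand of the gene.
Vgf, chr12:25277021-25277160, minus strand, element at positions -90 to -83 from the start: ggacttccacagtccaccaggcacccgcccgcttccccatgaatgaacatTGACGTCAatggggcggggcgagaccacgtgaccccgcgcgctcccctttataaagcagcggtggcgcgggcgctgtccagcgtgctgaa
Scg2, chr9:88256867-88257016, minus strand, element at positions -123 to -116: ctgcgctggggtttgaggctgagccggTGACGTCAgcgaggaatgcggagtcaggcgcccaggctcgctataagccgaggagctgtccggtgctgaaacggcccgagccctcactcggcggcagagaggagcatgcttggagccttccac
Sst, chr11:90461436-90461555, plus strand, element at positions 3 to 10, after the annotated start: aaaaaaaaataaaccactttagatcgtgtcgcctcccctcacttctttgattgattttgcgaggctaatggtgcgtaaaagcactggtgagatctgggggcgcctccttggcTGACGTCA
Vip, chr1:44470340-44470479, plus strand, short site at positions -97 to -93: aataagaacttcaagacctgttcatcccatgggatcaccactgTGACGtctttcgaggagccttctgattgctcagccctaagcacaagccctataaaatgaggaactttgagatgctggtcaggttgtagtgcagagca

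The labels of experiment 3 went against the interferon response. Interferon-g was given only in the Th1 mixture, and 6 genes known to respond to it, chosen after their values were seen, were examined on each array (Cd74, RT1-Da, Gbp2, Cxcl10, Irf1 and Psmb9). Cd74, the invariant chain of class II molecules, had signals of 989, 344 and 3.7 on the arrays labelled Th1 in experiments 1, 2 and 3, of 49.0, 10.5 and 1379.7 on those labelled M/M, and of 41.1, 5.11 and 4.1 on the control arrays. On the Th1 arrays of experiments 1 and 2, 6 of 6 genes were above control (median log2 ratio 3.64 and 5.15), whereas on the array labelled Th1 in experiment 3 this held for 0 of 6 (median -0.37). On the M/M arrays of experiments 1 and 2, 5 of 6 were above control (median 1.17 and 1.53), so the genes did not answer to the Th1 mixture alone, and on the array labelled M/M in experiment 3 all 6 were (median 4.70). On the Th2 arrays 1 and 3 of 6 were above control in experiments 1 and 2 (median -0.45 and 0.02), whereas 6 of 6 were on the array labelled Th2 in experiment 3 (median 1.36). No array was given another label. Arrays are grouped below by the mixture their label names, and the mean ratios and counts of the peptide genes are also given without experiment 3.

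**Figure D1:**
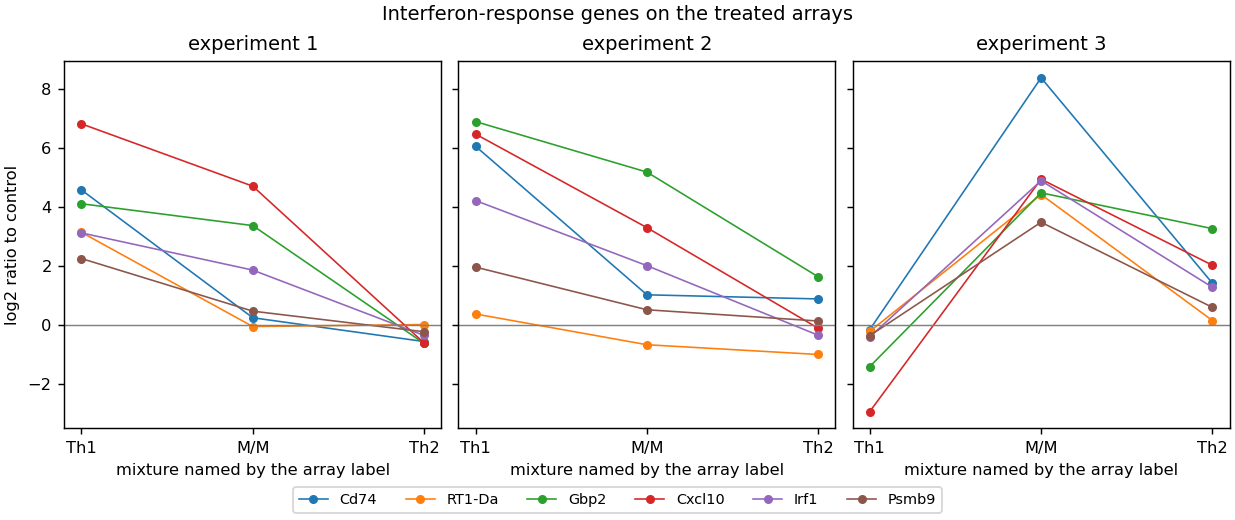
Log2 ratio to the control array of the same experiment (vertical axis) for 6 interferon-response genes, by the mixture on the array label (horizontal axis), with 1 panel per experiment. Lines join values of 1 gene. In experiments 1 and 2 the 6 genes are highest under Th1 and above 0, whereas in experiment 3 they lie between -2.93 and -0.15 under Th1 and between 3.50 and 8.40 under M/M.

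Arrays also differed in brightness. Median signals were 57.0, 61.0 and 24.5 on Th1 arrays of experiments 1, 2 and 3, 60.9, 57.9 and 42.2 on M/M arrays, 58.4, 56.1 and 29.1 on Th2 arrays and 59.1, 38.4 and 26.9 on control arrays. The control arrays of experiments 2 and 3 were therefore dimmer than most treated arrays beside them. Over all 8740 probe sets the median log2 ratio, averaged within experiments, was 0.14 under Th1, 0.33 under M/M and 0.19 under Th2. For this reason mean ratios of the peptide genes are also given after each array was centred on its median.

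Among the markers of other cells, 12 of 16 neuronal genes were measured, and their summed signals on arrays of experiments 1, 2 and 3 were 1334, 1446 and 683 for Th1, 1371, 1202 and 1110 for M/M, 1427, 1236 and 917 for Th2 and 1361, 965 and 732 for control. Slc17a7, the vesicular glutamate transporter of cortical excitatory neurons, had signals of 1.0 to 4.0 on the 12 arrays, whereas Gad1, the enzyme that makes GABA, had 38.0 to 216. The 3 of 5 endothelial genes measured summed to 17.4 to 132. Genes of fibroblasts and meninges (5 of 5 measured) summed to 4347, 714 and 2436 on the control arrays of experiments 1, 2 and 3, so the cultures differed in this content before treatment. All 6 oligodendrocyte genes that were measured and 6 of 7 astrocyte genes had mean signals above the median probe set. This also held for 4 of 6 microglial genes and 2 of 2 genes of oligodendrocyte precursors. Among the neuronal genes it held for 4 of 12, namely Gap43, Map2, Syn1 and Gad1. For endothelial genes it held for 0 of 3, and for genes of fibroblasts and meninges for 4 of 5. The part of these cells in the peptide values was not tested, and in whole cultures fewer cells of a type cannot be told apart from less RNA per cell.

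Vgf encodes a granin that is cut into several bioactive peptides and was first known as a gene induced by nerve growth factor. Its probe set (M74223_at) gave signals of 1019, 414 and 349.6 with Th1 in experiments 1, 2 and 3. With M/M they were 799, 502 and 726, with Th2 602, 237 and 872, and in control cultures 235, 223 and 133. All 9 treated arrays lay above the 3 control arrays, although the Th2 array of experiment 2, at 237.25, was close to the highest control at 235.29. The means were 594 ± 369 with Th1, 676 ± 154 with M/M, 571 ± 319 with Th2 and 197 ± 55.7 in control (SD, n = 3 each).

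Within experiments, the log2 ratios of Vgf to control were 2.11, 0.89 and 1.39 for Th1, 1.76, 1.17 and 2.45 for M/M and 1.36, 0.09 and 2.71 for Th2. The mean ratios were 1.47 (SD 0.62), 1.79 (SD 0.64) and 1.39 (SD 1.31). Without experiment 3 they were 1.50, 1.47 and 0.72, so the Th2 mean depended on that experiment more than the others did. After centring they were 1.31, 1.37 and 1.17, and the ratio for Th2 in experiment 2 turned to -0.46. The highest control signal of Vgf was 1.77 times the lowest, a spread smaller than that of any other gene of the set except Tac1.

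Scg2, or secretogranin II, is the precursor of secretoneurin. Its probe set (M93669_at) had signals of 157, 50.5 and 20.0 in Th1 cultures of experiments 1, 2 and 3, and of 98.35, 50.4 and 67.0 in M/M cultures. With Th2 they were 102, 29.3 and 70.9, and in control cultures 76.2, 7.81 and 24.1. The groups overlapped, and only the array labelled Th1 in experiment 3 lay below its own control. The log2 ratios were 1.05, 2.69 and -0.27 for Th1, 0.37, 2.69 and 1.48 for M/M, and 0.42, 1.91 and 1.56 for Th2. Their means were 1.16 (SD 1.48), 1.51 (SD 1.16) and 1.29 (SD 0.78), and without experiment 3 they were 1.87, 1.53 and 1.16. After centring they were 0.997, 1.08 and 1.08. In each mixture the ratio was highest in experiment 2, where the control array had its lowest signal, 7.81.

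Gal encodes galanin, an inhibitory peptide that acts on the receptors Galr1 to Galr3. Its probe set (J03624_at) gave signals of 291, 265 and 21.0 with Th1 in experiments 1, 2 and 3, and 313, 287 and 126 with M/M. With Th2 they were 338, 271 and 53.9, and in control cultures 327, 188 and 3.2. In experiments 1 and 2 all arrays lay between 188 and 338, whereas in experiment 3 all 4 arrays were dimmer and the control array was at 3.2. The highest control signal was thus 102 times the lowest. The log2 ratios were -0.17, 0.49 and 2.71 for Th1, -0.06, 0.61 and 5.30 for M/M, and 0.05, 0.53 and 4.07 for Th2. Their means were 1.01 (SD 1.51), 1.95 (SD 2.92) and 1.55 (SD 2.20), and without experiment 3 they were 0.16, 0.27 and 0.29. After centring they were 0.85, 1.52 and 1.34. The large mean ratio of Gal rested on that experiment, in which the labels are in doubt.

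Vip encodes vasoactive intestinal peptide, which raises cyclic AMP through Vipr1 and Vipr2. The signals of X02341cds_at in experiments 1, 2 and 3 were 23.7, 19.9 and 5.1 in Th1 cultures, and 27.3, 27.4 and 10.1 in M/M cultures. With Th2 they were 21.7, 22.2 and 2.9, and in control cultures 20.15, 8.42 and 1.4. Each treated array lay above the control of its experiment, but the groups overlapped because experiments differed. The log2 ratios were 0.24, 1.24 and 1.87 for Th1, 0.44, 1.70 and 2.85 for M/M, and 0.11, 1.40 and 1.05 for Th2. The means were 1.11 (SD 0.82), 1.66 (SD 1.21) and 0.85 (SD 0.67), and without experiment 3 they were 0.74, 1.07 and 0.75. After centring they were 0.95, 1.24 and 0.64. The ratios were lowest in experiment 1, where control was brightest.

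Sst encodes somatostatin, which inhibits secretion through the receptors Sstr1 to Sstr5. With Th1 the brighter of its probe sets (K02248cds_s_at) had signals of 51.9, 34.5 and 5.1 in experiments 1, 2 and 3. With M/M they were 91.1, 75.6 and 8.9, with Th2 87.0, 25.7 and 8.2, and in control cultures 55.8, 5.88 and 7.4. Signals in experiment 2 stood apart, since only there was control far below every treated array. The log2 ratios were -0.10, 2.55 and -0.54 for Th1, 0.71, 3.68 and 0.27 for M/M, and 0.64, 2.13 and 0.15 for Th2, with means of 0.64 (SD 1.67), 1.55 (SD 1.86) and 0.97 (SD 1.03). Without experiment 3 the means were higher, at 1.22, 2.20 and 1.38, and after centring they were lower, at 0.48, 1.13 and 0.76. The second probe set (M25890_at) had mean ratios of 0.34, 0.66 and 1.55, which were 0.27, 0.10 and 0.52 without experiment 3, and its control signals spanned 89.0-fold, between 1.8 and 160. The probe sets gave the same sign in 7 of 9 ratios and correlated with r = 0.35 over the 12 arrays after experiment means were subtracted.

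**Figure D2:**
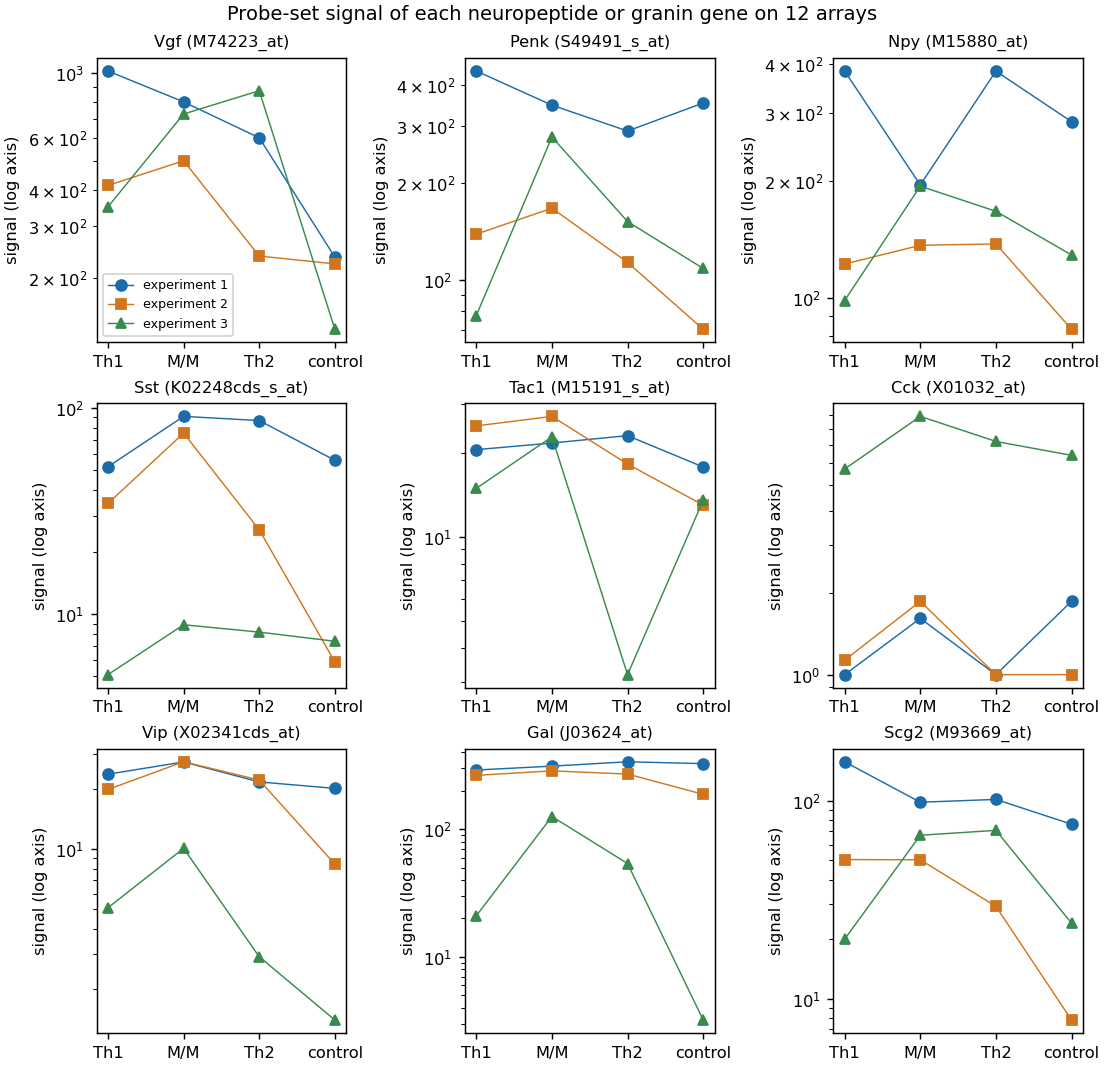
Deposited signal (vertical axis, log scale) of the brightest probe set of each of 9 genes in the Th1, M/M, Th2 and control groups (horizontal axis), with 1 point per array and lines joining arrays of 1 experiment. All treated points of Vgf lie above its 3 control points. For Gal the points of experiment 3 lie below those of experiments 1 and 2, down to a control of 3.2.

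The other 4 genes had mean ratios below 1 in every mixture. Penk, the precursor of the enkephalins, had signals of 77.6 to 443 with Th1, 167 to 347 with M/M, 113 to 289 with Th2 and 70.4 to 352 in control, and mean log2 ratios of 0.27, 0.86 and 0.29 for Th1, M/M and Th2. Npy, the precursor of neuropeptide Y, had 98.7 to 385, 137 to 196, 138 to 384 and 83.3 to 285 in the same order, with mean ratios of 0.20, 0.26 and 0.51. For both genes all groups overlapped. Without experiment 3 the means were 0.65, 0.61 and 0.20 for Penk and 0.50, 0.09 and 0.58 for Npy. After centring they were 0.11, 0.43 and 0.08 for Penk and 0.04, -0.17 and 0.30 for Npy, so that the sign of Npy with M/M turned. Npy with Th2 had the smallest spread of its 3 means, with ratios of 0.43, 0.73 and 0.37 (SD 0.19).

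Tac1, the precursor of substance P and neurokinin A, had signals of 14.9 to 24.95 with Th1, 21.7 to 27.0 with M/M, 3.2 to 23.0 with Th2 and 13.0 to 17.8 in control on its brighter probe set (M15191_s_at). The mean log2 ratios were 0.43 under Th1, 0.70 under M/M and -0.41 under Th2. The M/M arrays lay above all 3 control arrays, and the negative Th2 mean came from experiment 3, where the ratio was -2.08. Without that experiment the means were 0.57, 0.67 and 0.43, and after centring all 3 experiments they were 0.27, 0.27 and -0.62. The second probe set (X56306_s_at) had mean ratios of -0.56, -0.04 and 0.19, opposite in sign to the brighter one in all 3 mixtures with experiment 3 and not without it (0.33, 0.56 and 0.29), and the pair correlated with r = -0.43 over the 12 arrays. Cck, the precursor of cholecystokinin, had signals of 1.0 to 1.86 on the 8 arrays of experiments 1 and 2 and 5.7 to 8.9 in experiment 3, so its mean ratios (-0.30, 0.39 and -0.24) were set among values at the bottom of the scale. Without experiment 3 they were -0.36, 0.34 and -0.45, and after centring -0.46, -0.04 and -0.45.

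Averaged over the 9 treated arrays, the log2 ratio was 1.55 for Vgf, 1.50 for Gal, 1.32 for Scg2, 1.21 for Vip and 1.05 for Sst. Penk had 0.47, Npy 0.32, Tac1 0.24 and Cck -0.05. Without experiment 3 the order changed, with 1.60 for Sst, 1.52 for Scg2, 1.23 for Vgf, 0.85 for Vip and 0.24 for Gal. After centring Vgf had 1.28, Gal 1.24, Scg2 1.05, Vip 0.94 and Sst 0.79. Vgf and Vip were above control on 9 of 9 treated arrays, Scg2 and Tac1 on 8, Gal, Sst and Npy on 7, Penk on 6 and Cck on 4. After centring this held on 9 arrays for Vip, 8 for Vgf and Scg2, 7 for Tac1, 6 for Sst and Penk, 5 for Gal and Npy and 2 for Cck. The M/M mixture had the highest mean of the 3 mixtures for 8 of 9 genes, with Npy as the exception. It also had the largest shift over all probe sets, and after centring it was again highest for 8 of 9. The tally rested on experiment 3. Without it M/M was highest for 4 of 9 genes (Sst, Tac1, Cck and Vip), Th1 for 3 (Vgf, Penk and Scg2) and Th2 for 2 (Gal and Npy). Neither this tally nor the counts of arrays above control were made over all probe sets, so nothing about the peptide genes is read from them.

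**Figure D3:**
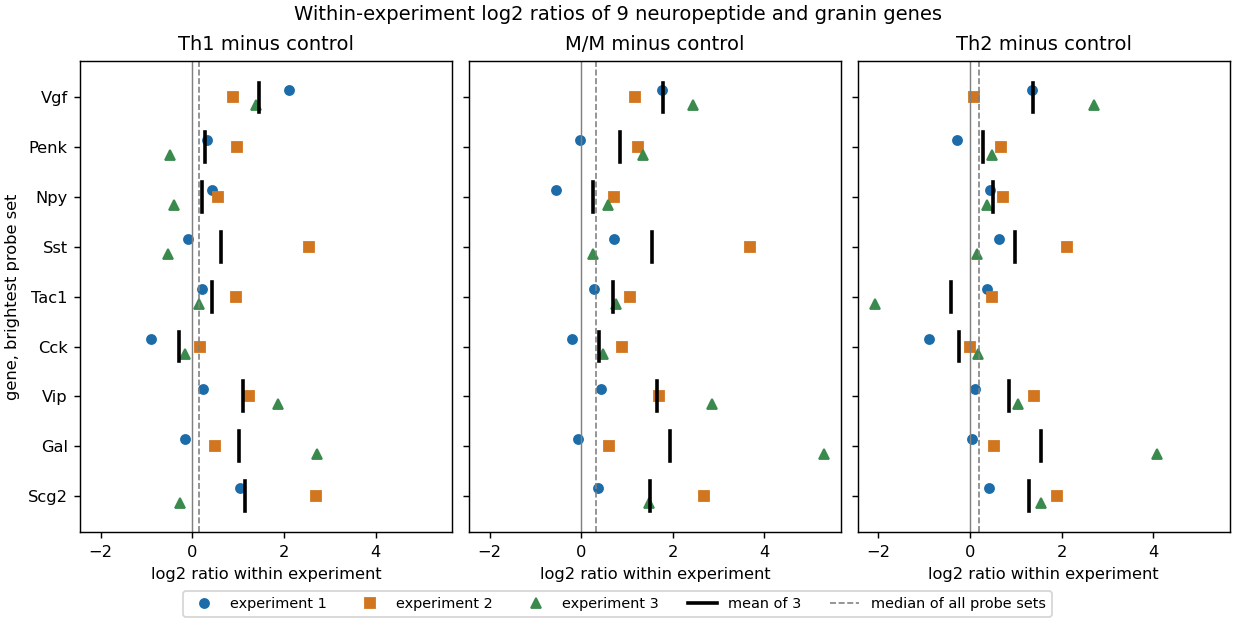
Log2 ratio of each treated array to the control of its experiment (horizontal axis) for the brightest probe set of 9 genes (vertical axis), with 1 panel per mixture, symbols for experiments, a bar at the mean of 3 and a dashed line at the median of all probe sets. Vgf lies right of 0 in all panels, whereas the means of Gal are drawn out by experiment 3, up to 5.30 with M/M.

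The median log2 ratio of the 11 probe sets was 0.43 under Th1, 0.86 under M/M and 0.85 under Th2, against medians over all probe sets of 0.14, 0.33 and 0.19. By experiment the medians of the set were 0.24, 0.94 and -0.17 for Th1, 0.29, 1.06 and 1.35 for M/M and 0.37, 0.69 and 0.48 for Th2. Without experiment 3 they were 0.57, 0.61 and 0.52, and after centring 0.27, 0.43 and 0.64. A mean more than 2-fold higher was seen for 4 of 11 probe sets with Th1, where 5.76 percent of all probe sets passed this fold, for 5 with M/M (11.6 percent) and for 4 with Th2 (7.01 percent). Without experiment 3 the counts were 3, 4 and 2, beside 9.86, 10.0 and 8.8 percent of all probe sets. After centring they were 1, 5 and 4, beside 3.86, 4.68 and 4.06 percent, so that the count for Th1 depended on the scaling. A mean more than 2-fold lower was seen for 0 of 11 with each mixture, where 2.21, 1.3 and 1.4 percent of all probe sets passed.

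Ratios above 0 in 3 of 3 experiments were found for 3 of 11 probe sets with Th1 (14.0 percent of all probe sets), 5 with M/M (32.0 percent) and 7 with Th2 (25.0 percent). In experiments 1 and 2 alone, both ratios were above 0 for 6, 6 and 9 of 11, beside 32.3, 37.6 and 37.3 percent of all probe sets. Because the set was chosen on these ratios, nothing is read from the counts. Each mixture was set against the same 3 control arrays, so a low control signal raised all 3 ratios of an experiment. Over the 11 probe sets the highest control signal was a median of 6.40 times the lowest, against 3.02 for all probe sets. The controls of the set thus varied more between experiments than those of a typical probe set.

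The genes whose pattern was most like that of Vgf were found by Pearson correlation of log2 signal over 12 arrays after the mean of each experiment was subtracted, among 5394 probe sets. The arrays share their controls and brightness, so the values are a description. The highest were Gch1 (0.938), Myc (0.935), Ccl2 (0.931), Limk2 (0.930) and Ripk3 (0.92). Within the set, Vgf correlated most with Gal (0.720), Scg2 (0.707) and Vip (0.601), and least with Cck (0.112) and Tac1 (-0.08). For Gal the highest were Eci1 (0.978), Cyba (0.975), Trib3 (0.974), Ttl (0.972) and Pth1r (0.972), over a pattern in which the control array of experiment 3, with a signal of 3.2, stood lowest.

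The remaining genes of the pathway, which are not in the set, were tested by limma. Of 87 genes listed, 72 had 124 probe sets. At an adjusted p under 0.05, 0 of 124 rose and 0 fell with each mixture, while over all 8740 probe sets 0 were called for Th1 (0.0 percent), 23 for M/M (0.263 percent) and 1 for Th2 (0.0114 percent). At an unadjusted p under 0.05, 2 were higher and 2 lower with Th1, 11 and 1 with M/M, and 3 and 1 with Th2. The higher ones were 1.61, 8.87 and 2.42 percent of the 124, against 4.75, 15.4 and 6.06 percent of all probe sets (415, 1343 and 530). The lower ones were 1.61, 0.806 and 0.806 percent of the 124, against 0.812, 0.584 and 0.686 percent of all probe sets (71, 51 and 60). The list thus held a smaller share of higher and a larger share of lower probe sets than the array with each mixture. This was not tested, and the lower share rests on 1 or 2 probe sets. With so many dim probe sets in the list, nothing about peptide genes is read from it.

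Other peptides and granins had 29 of 37 genes measured on 50 probe sets, with median log2 fold changes of -0.05 under Th1, 0.22 under M/M and 0.16 under Th2. Chgb, or chromogranin B, had 0.70, 0.59 and 1.15 (adjusted p = 0.869, 0.622 and 0.717), and Scg3, a granin that helps sort others into granules, had 0.40, 0.22 and 0.19 (adjusted p = 0.857, 0.692 and 0.879). None of these 6 values passed. In Th2 cultures Pmch, the precursor of melanin-concentrating hormone, had signals of 10.6, 23.2 and 9.3 in experiments 1, 2 and 3, against 9.97, 5.99 and 1.3 in control (log2 fold change 1.63, SE 0.57, adjusted p = 0.715, higher in 3 of 3). Without experiment 3 the fold change was 1.02. In Th1 cultures Nppa, the precursor of atrial natriuretic peptide, was lower in 3 of 3 on one probe set (E00903cds_s_at, -1.45, SE 0.60, adjusted p = 0.857), with signals of at most 9.3. The other Nppa probe sets differed in sign, at 1.10 (X01118_at, higher in 3 of 3), 1.18 (E00775cds_s_at) and -0.35 (E00698cds_s_at), so no direction is given for the gene.

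Enzymes of prohormone processing and amidation had 11 of 14 genes on 23 probe sets, and their medians were 0.14, 0.32 and 0.11. Furin, a convertase of the constitutive secretory pathway, was higher in Th2 cultures in 3 of 3 experiments on both of its probe sets among the lowest p values. On X55660_g_at the signals were 692, 345 and 299 in Th2 cultures, against 310.5, 138 and 247 in control (log2 fold change 0.92, SE 0.31, adjusted p = 0.715). On X55660_at they were 23.9, 19.4 and 94.9, against 7.42, 1.27 and 71.2 (2.01, SE 0.74, adjusted p = 0.715). Without experiment 3 these fold changes were 1.24 and 2.81. The call was not reached in either case.

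Cpd, a carboxypeptidase that trims cut precursors, had signals of 173, 297 and 131 in M/M cultures, against 152, 138 and 49.4 in control (0.90, SE 0.32, adjusted p = 0.231). Without experiment 3 the fold change was 0.65. In Th1 cultures Qpct, which forms the N-terminal pyroglutamate of some peptides, lay above control in 2 of 3 experiments (1.33 on the log2 scale, SE 0.55, adjusted p = 0.857), and the value was 0.50 without experiment 3. Cpz, a carboxypeptidase, was lower with Th1 in 3 of 3 (-1.66, SE 0.65, adjusted p = 0.857). Its signals were low, at 1.0, 1.27 and 19.3 with Th1, against 3.39, 4.15 and 54.8 in control. Cpe, the carboxypeptidase of dense-core granules, had fold changes of 0.32, 0.21 and 0.17, with none called.

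Peptide-degrading enzymes had 10 of 10 genes on 19 probe sets, with medians of 0.20, 0.38 and 0.35. Peptide receptors had 22 of 26 genes on 32 probe sets, with medians of 0.03, 0.26 and 0.04. Tacr1, the receptor of substance P, had signals of 6.44, 6.16 and 1.7 in M/M cultures, against 11.3, 13.8 and 9.2 in control. All M/M arrays lay below all control arrays (-1.47, SE 0.50, limma adjusted p = 0.220, the lowest of the M/M values). Without experiment 3 the fold change was -0.99. With Th1 it was also lower in 3 of 3 (-1.015, adjusted p = 0.857). By mean log2 signal the probe set stood at percentile 19.1 of all probe sets. Sstr4, a somatostatin receptor, had 150.2, 137 and 58.4 in M/M cultures, against 107, 75.7 and 23.0 in control (0.90, SE 0.32, adjusted p = 0.234), higher in 3 of 3. Without experiment 3 the fold change of Sstr4 was 0.67. Neither receptor passed the threshold.

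**Figure D4:**
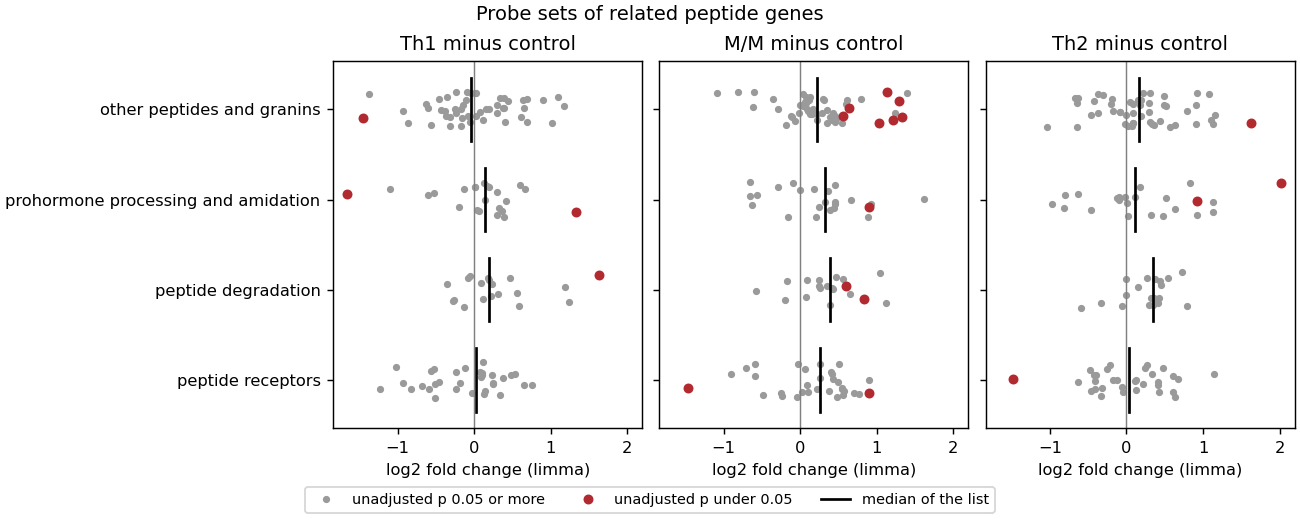
Log2 fold change by limma (horizontal axis) of the 124 probe sets of 4 gene lists (vertical axis, points spread at random within a list), with 1 panel per mixture and a bar at the median of each list. Red points have an unadjusted p under 0.05, 11 higher and 1 lower with M/M, and none passed an adjusted p of 0.05.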

How the data were processed

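RNA of 12 cultures was hybridised to Affymetrix RG-U34A arrays. The deposited intensity values are linear probe-set signals, which the authors calculated with dChip 1.2. A normalization between arrays is not given in the sources used here. Experiments were taken from the code that 4 sample titles share. Of 8799 probe sets, 59 array controls were left out. Signals were floored at 0.1 and taken to log2 without rescaling. Of the 8740 probe sets, 7006 carry 1 gene symbol of the array annotation, 308 several and 1426 none.

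Member ratios are log2 differences within an experiment, and each gene is reported by its probe set of highest mean log2 signal. All members were named, with values on every array where a mean ratio reached 1 or all 9 ratios had 1 sign. In the pathway lists the 3 lowest p values per mixture were named. Chgb, Scg3 and Cpe were added after their values were seen. Members, lists and rules were chosen with earlier results of these data known.

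Pathway genes were tested with limma 3.58.1 (R 4.3.3) over all 12 arrays, with experiment as a replicate block, a variance trend and Benjamini-Hochberg adjustment over 8740 probe sets (6 residual and 6.94 prior degrees of freedom). The fit was tested on simulated data. Experiment numbers paired the arrays, since 18 correlations of deviations within an experiment were 0.439 to 0.708 and 36 between experiments and groups were at most 0.357. Promoters are RefSeq sequences of GRCr8.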

Additional observations from a re-analysis of the deposited data

How the results depend on the processing

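With limma, 0 pathway probe sets were called for every mixture under 10 alternatives, among them the fit with no replicate block (0 calls), quantile normalization, arrays centred on their medians, an offset of 16, a floor of 1, the dimmest 25 percent left out, no variance trend and each replicate left out. Of the 124 pathway probe sets, 54 were among the dimmest 25 percent and so were not tested in that setting. A rerun of the methods' screen on log2 signals (more than 2-fold and an unpaired analysis of variance p under 0.2, without adjustment) called 2 for Th1 cytokines, 6 for M/M and 4 for Th2. It did not return all calls of the authors, among them Crh and Nppb with Th1. Their log2 fold changes here were 0.90 and -0.25, and the reason for the difference was not tested. The median log2 ratio of the 11 member probe sets with Th2, 0.85, was 0.60 after quantile normalization, 0.64 after centring and 0.46 with the offset, and between 0.40 (without replicate 2) and 1.14 (without replicate 1) with a replicate left out. The median for Th1, 0.43, lay between 0.02 and 0.84, and that for M/M, 0.86, between 0.43 and 1.35. Of 195 alternative values of mean ratios of single members, 11 changed sign. These were Penk -0.08 and Sst -0.32 with Th1 without replicate 2, Cck 0.00 (Th1) and 0.08 (Th2) without replicate 1, Tac1 0.43 (Th2) without replicate 3 and, on its second probe set, -0.56, -0.04 and 0.19, Npy -0.14 after quantile normalization and -0.17 after centring (M/M), and Cck -0.04 after centring (M/M). The cause was not tested. Signals near the lower end of the scale, such as those of Cck (1.0 to 8.9) and the experiment 3 controls of Gal (3.2) and Vip (1.4), limit the ratios taken on them.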

Other observations

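Other peptide genes passed only the rerun of the methods' screen, without adjustment, and were named after their values were seen. With M/M cytokines the calcitonin gene-related peptide genes Calca (M11597_at) and Calcb (M11596_at) had log2 fold changes of 1.39 and 1.24 and were higher in 3 of 3 experiments (limma adjusted p = 0.324 and 0.465). Another Calca probe set (L00111unknown_S536_at) had 0.46 (adjusted p = 0.432). Adcyap1, the precursor of the peptide PACAP, had 1.33 on M63006_at (adjusted p = 0.301), with its other probe sets at 0.12 and 0.55. Avp, the vasopressin precursor, had 1.13 on M64785_g_at (adjusted p = 0.241), with 0.56 and -0.62 on the others. Mme, the peptide-degrading enzyme neprilysin, had 1.12 (adjusted p = 0.485), with its second probe set at -0.57. By mean log2 signal, M11597_at stood at percentile 11.9 of all probe sets and the first Mme probe set at 5.54. The screened probe sets of Adcyap1, Calcb and Avp stood at 20.7, 29.7 and 35.95.

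With Th2 cytokines the screen held the neurokinin B precursor gene Tac3 (1.13, adjusted p = 0.730), the nociceptin receptor gene Oprl1 (1.15, adjusted p = 0.717) and the somatostatin receptor gene Sstr3 (-1.49, adjusted p = 0.717). With Th1 cytokines it held Dpp4, a peptidase gene (1.64 on one probe set and -0.36 on the other, adjusted p = 0.857 for the first), and Vipr2, a receptor gene for vasoactive intestinal peptide (-1.24, adjusted p = 0.857). By mean log2 signal, Tac3, Oprl1 and Sstr3 stood at percentiles 10.3, 17.0 and 8.47 of all probe sets. The first Dpp4 probe set and Vipr2 stood at 1.58 and 5.46. Such low signals limit the ratios taken on them.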
